A study of Mus musculus with 6 samples.

Results

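The SLC25 family comprises the mitochondrial carriers, membrane proteins that move metabolites across the inner mitochondrial membrane. The genes were taken by name from the deposited expression table as every symbol that starts with Slc25a followed by digits, which gave 44 genes among 23203 loci, each in a locus of its own. Naive mouse CD4 T cells had been turned into Th17 cells, helper T cells that make IL-17, by 48 h of culture on plate-bound anti-CD3e at 10 µg/ml. The medium held IL-23 at 10 ng/ml, TGFb1 at 2.5 ng/ml, IL-6 at 20 ng/ml and anti-CD28 at 1 µg/ml. The 2 groups shared all of this and differed in what was added, either the vehicle DMSO or 2-deoxyglucose (2DG) at 250 µM, a sugar that resembles glucose and slows glycolysis, with 3 RNA-seq libraries each. The labels give no strain, age or genotype and do not say whether cultures or animals were separate for each library, and the p-values then rest on a spread between libraries that may be only technical. The question here was whether the transcripts of the mitochondrial carriers differed between cultures with 2DG and with vehicle.

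A carrier of this family is built from repeated pairs of membrane-spanning helices and binds its substrate alternately from the cytosolic and the matrix side. Most members exchange one substrate for another, so that the ADP/ATP carriers let ATP made in the matrix out against ADP, and the aspartate/glutamate and oxoglutarate carriers together pass reducing equivalents from cytosolic NADH into the matrix as the malate-aspartate shuttle. Others supply the matrix with phosphate, iron, nucleotides and cofactors. In activated T cells, which raise both glycolysis and mitochondrial metabolism, these carriers link the cytosolic and mitochondrial branches of carbon, nitrogen and one-carbon metabolism.

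Of the 44 genes, 32 had a mean of at least 1 FPKM (mapped fragments scaled by transcript length and by library size, a level that is already per length) over the 6 libraries, and these were tested. With 2DG, 0 of the 32 were called higher and 0 lower (limma on log2(FPKM + 1), Benjamini-Hochberg adjusted p under 0.05 over the 10228 loci tested), against 1.53% of all tested loci called higher and 1.19% called lower, 2.72% in either direction. At an unadjusted p under 0.05 there were 4 of 32 (12.5%), against 17.9% of all tested loci. Differences lay above 0 for 16 genes and below 0 for 16, with a median log2 difference of -0.01, and the median over all tested loci was -0.01 as well. The median absolute log2 difference was 0.14 for the carriers and 0.13 for all tested loci. The highest log2 difference was 0.59, of the ornithine carrier gene Slc25a15, and the lowest was -0.28, of the ATP-Mg/phosphate carrier gene Slc25a23. The 95% interval of the difference lay within 1.5-fold in both directions for 25 of the 32 and within 2-fold for all 32, on the log2(FPKM + 1) scale, which understates changes of low genes. The upper limit passed 2-fold for Slc25a26 with a pseudocount of 0.1 (1.04 on the log2 scale) and with replicates 2 and 3 only (1.09), and for Slc25a15 with equal sums per library (1.01). Genes whose interval reached past 1.5-fold included Slc25a15, Slc25a17, Slc25a22, Slc25a23, Slc25a24 and Slc25a26. In 8 of the 32 (25.0%) the 3 vehicle and the 3 2DG libraries did not overlap, close to the 23.7% of all tested loci. Without overlap, 6 of the 32 were higher with 2DG, against 11.9% of all tested loci, and 2 of the 32 were lower, against 11.8%.

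**Figure D1:**
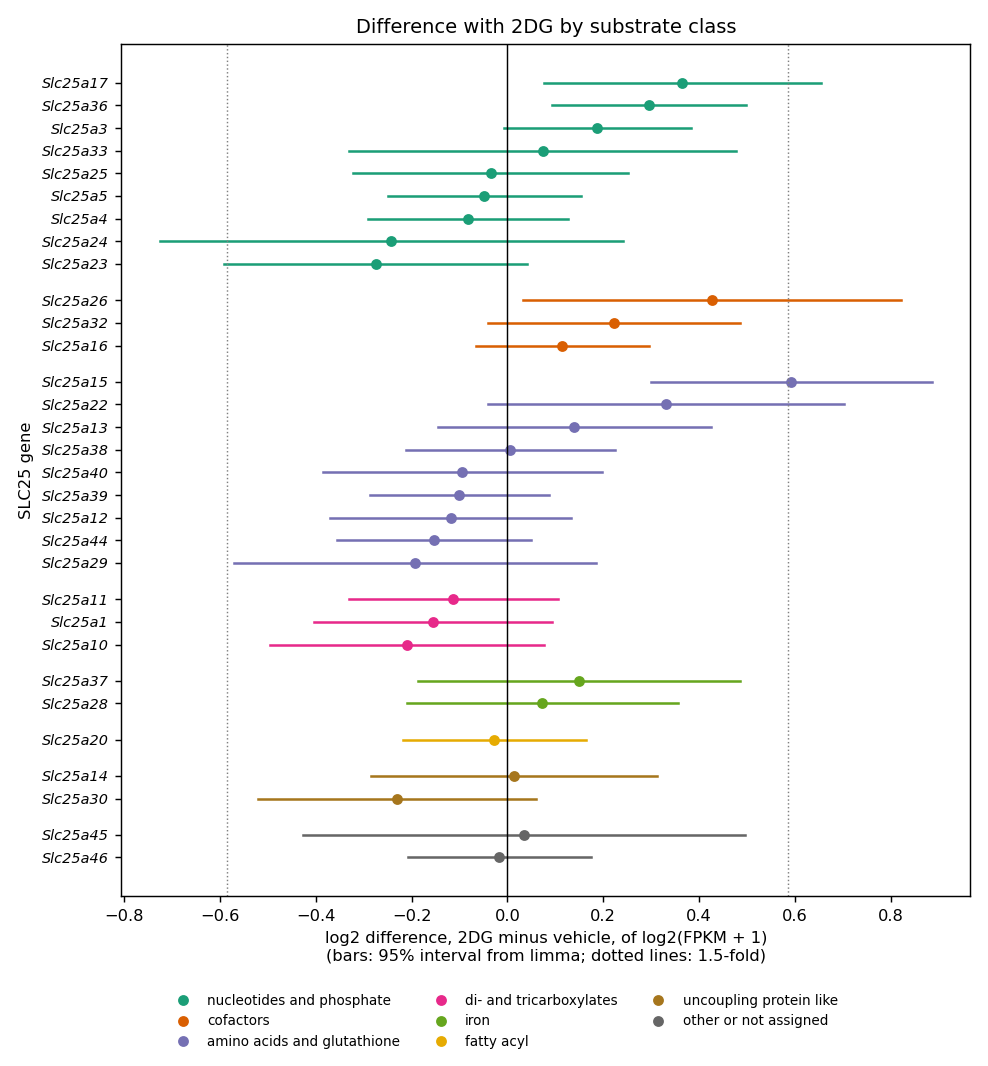
Log2 difference (2DG minus vehicle) of log2(FPKM + 1) for 31 of the tested SLC25 genes on the horizontal axis, grouped and coloured by substrate class; points are limma estimates, bars are 95% intervals and dotted lines mark 1.5-fold. Of the points, 15 lie above and 16 below 0, from -0.28 for Slc25a23 to 0.59 for Slc25a15, and 3 bars lie wholly above 0 besides that of Slc25a15, those of Slc25a36, Slc25a17 and Slc25a26.

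The T cell label was checked on marker genes. The summed level of the T cell markers Cd3d, Cd3e, Cd3g and Cd4 was 400 to 525 FPKM per library. The B cell list (4 genes) summed to 0.0945 to 3.71 FPKM, the myeloid list (5 genes) to 0.329 to 2.59 FPKM, the CD8 list (2 genes) to 2.68 to 5.51 FPKM and the NK cell list (3 genes, of which Klrb1c and Klra8 were at 0 in every library) to at most 0.0755 FPKM. Of the 6 Th17 markers, Rora, Il17a and Ccr6 rose with 2DG and none fell; the part of that difference in any carrier value was not tested. In bulk cultures, fewer cells with a transcript and less of it per cell cannot be told apart. The replicate 1 libraries of both groups alone listed Rn45s, the ribosomal RNA precursor, above 0 (12874 FPKM in vehicle replicate 1 and 7186 FPKM in 2DG replicate 1). With replicates 2 and 3 only, 0 carriers were again called in either direction, while 71 of all 10212 loci were called. At an unadjusted p under 0.05 by limma there were 3 carriers, and the share of all loci at that level was not counted for this fit.

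Carrier transcripts differed far more between genes than between treatments. Slc25a5 and Slc25a4, the genes of the ADP/ATP carriers, and Slc25a3, that of the phosphate carrier, together held 65.6% to 67.9% of the summed carrier FPKM in each library. That summed level was 1607 ± 39.4 FPKM in the vehicle libraries and 1634 ± 65.1 FPKM in the 2DG libraries (SD, n = 3 each). The next gene, Slc25a17, had a mean of 83.8 FPKM over the 6 libraries, and the lowest tested gene, Slc25a29, had 1.27 FPKM. Replicates were close, with a median coefficient of variation over the 32 genes of 11.5% with vehicle and 8.32% with 2DG.

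**Figure D2:**
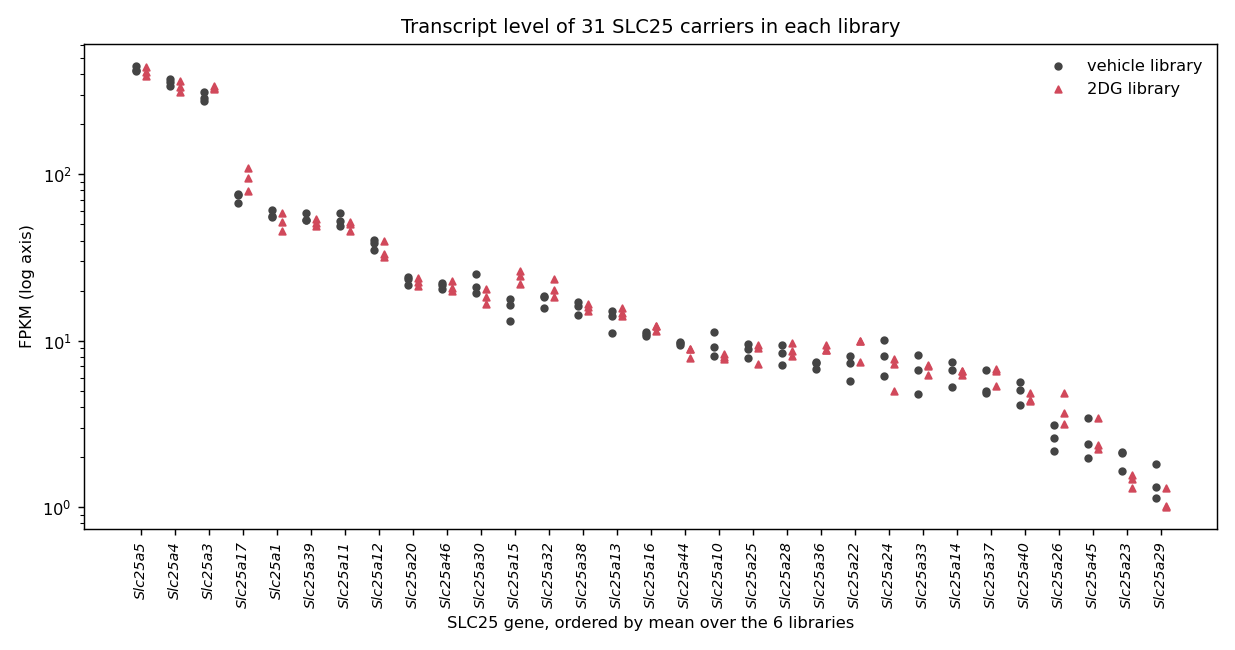
FPKM on a log axis for 31 of the tested SLC25 genes in each of the 3 vehicle libraries (circles) and 3 2DG libraries (triangles), ordered by mean level. Mean levels run from 1.27 FPKM for Slc25a29 to 421 FPKM for Slc25a5, and at each gene the points of both groups lie close together on this scale.

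In the reported fit, Slc25a15 had the smallest p of the members (locus XLOC_020351, GRCm38 chromosome 8, 22375551 to 22398597, minus strand). It is the gene of the mitochondrial ornithine carrier, which exchanges ornithine for citrulline in the urea cycle and brings ornithine to the matrix enzymes that use it. It was at 13.2, 16.3 and 17.7 FPKM in vehicle replicates 1 to 3 and at 26.1, 24.5 and 21.9 FPKM in 2DG replicates 1 to 3. Every 2DG library thus lay above every vehicle library, and the means differed 1.53-fold. The log2 difference was 0.59 ± 0.12 (SE), with a 95% interval from 0.30 to 0.89, and it narrowly missed the threshold (unadjusted p = 0.0020, adjusted p = 0.058 by limma). Slc25a15 was called in 4 of the 17 alternative treatments of the data, namely quantile normalization (adjusted p = 0.047), small RNA loci left out (0.030), only loci of status OK (0.0496) and robust variance estimation (0.030). It was not called in the others, where the adjusted p reached 0.20 without 2DG replicate 1 and 0.27 with replicates 2 and 3 only. Oat, for the matrix enzyme ornithine aminotransferase, was at 70.0, 71.6 and 68.0 FPKM in the vehicle libraries and 87.0, 84.1 and 94.5 FPKM in the 2DG libraries, without overlap, and did not pass the threshold either (log2 difference 0.34 ± 0.07, SE, adjusted p = 0.068). Slc25a2, a second ornithine carrier gene, was at 0 to 0.330 FPKM and was not tested.

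The second smallest p in the reported fit was that of Slc25a36 (locus XLOC_021916, chromosome 9, 97074961 to 97111157, minus strand). It encodes a carrier of pyrimidine nucleotides. Vehicle libraries were at 7.37, 6.74 and 7.41 FPKM and 2DG libraries at 8.81, 8.85 and 9.43 FPKM. The groups did not overlap, the log2 difference was 0.30 ± 0.09 (SE), and the adjusted p was 0.13. The other pyrimidine nucleotide carrier gene, Slc25a33, was at 6.70, 4.8 and 8.19 FPKM in the vehicle libraries and 6.23, 7.17 and 7.09 FPKM in the 2DG libraries, so that the 2DG libraries fell inside the spread of the vehicle libraries.

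The promoter windows of Slc25a15 and Slc25a36 are shown because these members had the smallest p in the reported fit. The 250 bases before each annotated start are given 5′ to 3′ on the gene's strand, from RefSeq (GRCm38.p6), with matches to the E-box CACGTG and the cAMP response element TGACGTCA in capitals; the first window of Slc25a15 holds neither.
Slc25a15 (chr8:22398622-22398871, minus strand): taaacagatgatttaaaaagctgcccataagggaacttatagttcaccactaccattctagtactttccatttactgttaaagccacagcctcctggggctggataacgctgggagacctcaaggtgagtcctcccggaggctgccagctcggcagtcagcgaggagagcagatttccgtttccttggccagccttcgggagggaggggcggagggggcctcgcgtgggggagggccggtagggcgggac
Slc25a15 (chr8:22398278-22398527, minus strand): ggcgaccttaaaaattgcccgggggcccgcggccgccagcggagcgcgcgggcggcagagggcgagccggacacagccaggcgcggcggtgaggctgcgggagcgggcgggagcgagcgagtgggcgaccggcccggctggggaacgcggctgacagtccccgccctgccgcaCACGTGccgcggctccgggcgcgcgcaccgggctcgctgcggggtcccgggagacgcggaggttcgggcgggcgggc
Slc25a36 (chr9:97111042-97111291, minus strand): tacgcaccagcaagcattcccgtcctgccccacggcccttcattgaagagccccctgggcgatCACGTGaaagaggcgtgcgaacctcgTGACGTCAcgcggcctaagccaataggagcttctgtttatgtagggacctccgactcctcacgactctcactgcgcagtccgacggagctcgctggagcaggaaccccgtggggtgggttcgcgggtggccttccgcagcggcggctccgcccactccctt
Slc25a15 has these 2 annotated starts. The E-box is a site type bound by factors such as MYC and USF, and both motifs were searched on both strands. An E-box was in the windows of 6 of the 26 carrier genes that had one (Slc25a1, Slc25a13, Slc25a14, Slc25a15, Slc25a33 and Slc25a36) and of 6.86% of all 27025 genes with a window. The cAMP response element was in those of Slc25a25 and Slc25a36 and of 1.77% of all genes. TGATGNAA, the core of the ATF4 response element, was in none of the 26, against 3.91% of all genes. The 26 all had a mean of at least 1 FPKM, while the 27025 genes were not chosen by level. The shares are therefore not like for like, and no enrichment was tested. These are letter matches only, with no binding measured, and the windows of Slc25a26, Slc25a32, Slc25a37, Slc25a44, Slc25a46 and Slc25a51 were not analysed here.

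Among carriers of adenine nucleotides and phosphate, the abundant genes stayed within a narrow range. Slc25a5, the main ADP/ATP carrier gene of dividing cells, was at 421, 416 and 448 FPKM in the vehicle libraries and 412, 391 and 440 FPKM in the 2DG libraries. Its sister Slc25a4 was at 374, 339 and 357 FPKM in the vehicle libraries and 336, 314 and 362 FPKM in the 2DG libraries. Both sets of libraries overlapped, and the 95% intervals of the log2 differences ran from -0.25 to 0.15 for Slc25a5 and from -0.29 to 0.13 for Slc25a4. Slc25a4 made up 45.4% ± 1.42 of the summed FPKM of both genes with vehicle and 44.8% ± 0.286 with 2DG (SD, n = 3 each, exact permutation p = 0.80). Of the 50-base stretches of the Slc25a5 transcript, 46.6% also occur in transcripts of other genes. Its level, this share and the summed carrier level thus depend on how such fragments were counted, which is not known. Slc25a3 (chromosome 10, 91116574 to 91124059, minus strand), whose product brings in the phosphate that ATP synthase uses, was at 315, 276 and 287 FPKM in the vehicle libraries and 325, 332 and 342 FPKM in the 2DG libraries. These groups did not overlap, but the log2 difference of 0.19 ± 0.08 (SE) did not pass (adjusted p = 0.30). The small differences of Slc25a5 and Slc25a4 changed sign under quantile normalization.

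The genes of the calcium-regulated ATP-Mg/phosphate carriers were low. Slc25a23 was at 1.65, 2.14 and 2.12 FPKM in the vehicle libraries and 1.48, 1.3 and 1.57 FPKM in the 2DG libraries, without overlap (log2 difference -0.28 ± 0.13, SE, adjusted p = 0.34). Slc25a24 varied within each group, at 10.1, 8.05 and 6.14 FPKM in the vehicle libraries and 4.98, 7.27 and 7.78 FPKM in the 2DG libraries, and Slc25a25 was at 7.27 to 9.52 FPKM in all libraries. Slc25a17 (chromosome 15, 81318911 to 81360812, minus strand), the gene of a peroxisomal carrier of coenzyme A, FAD and nucleotides, was the most abundant member after the ADP/ATP and phosphate carriers. It was at 76.4, 66.8 and 75.3 FPKM in the vehicle libraries and 95.7, 79.8 and 109 FPKM in the 2DG libraries. All 2DG libraries were above all vehicle libraries, with 2DG replicate 2 closest to them, and the log2 difference was 0.37 ± 0.12 (SE, adjusted p = 0.18).

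The 3 tested cofactor carriers described here, Slc25a16, Slc25a26 and Slc25a32, had log2 differences above 0, from 0.11 to 0.43, and 0 of 3 passed (smallest adjusted p = 0.25). Slc25a42, a cofactor carrier gene below the limit of 1 FPKM, was not tested and went the other way. Its means were 1.20 FPKM with vehicle and 0.565 FPKM with 2DG, and every 2DG library lay below every vehicle library. Slc25a26 (chromosome 6, 94500331 to 94604672, plus strand), the gene of the carrier that brings the methyl donor S-adenosylmethionine into the matrix, was at 3.12, 2.59 and 2.18 FPKM in the vehicle libraries and 3.69, 3.16 and 4.87 FPKM in the 2DG libraries. The lowest 2DG library was only just above the highest vehicle library, and the log2 difference was 0.43 ± 0.17 (SE). Slc25a32, for the folate carrier that feeds mitochondrial one-carbon metabolism, was at 18.5, 15.8 and 18.3 FPKM in the vehicle libraries and 23.4, 18.4 and 20.2 FPKM in the 2DG libraries, with the groups just overlapping (adjusted p = 0.36). Slc25a16, linked to coenzyme A in mitochondria, was at 11.0, 10.7 and 11.2 FPKM in the vehicle libraries and 12.2, 12.2 and 11.5 FPKM in the 2DG libraries, without overlap (adjusted p = 0.50). The NAD carrier gene Slc25a51 appears in the table under its older symbol Mcart1, outside the naming rule, at 19.6, 20.8 and 17.9 FPKM in the vehicle libraries and 17.9, 20.3 and 18.8 FPKM in the 2DG libraries, which overlapped (adjusted p = 0.89).

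**Figure D3:**
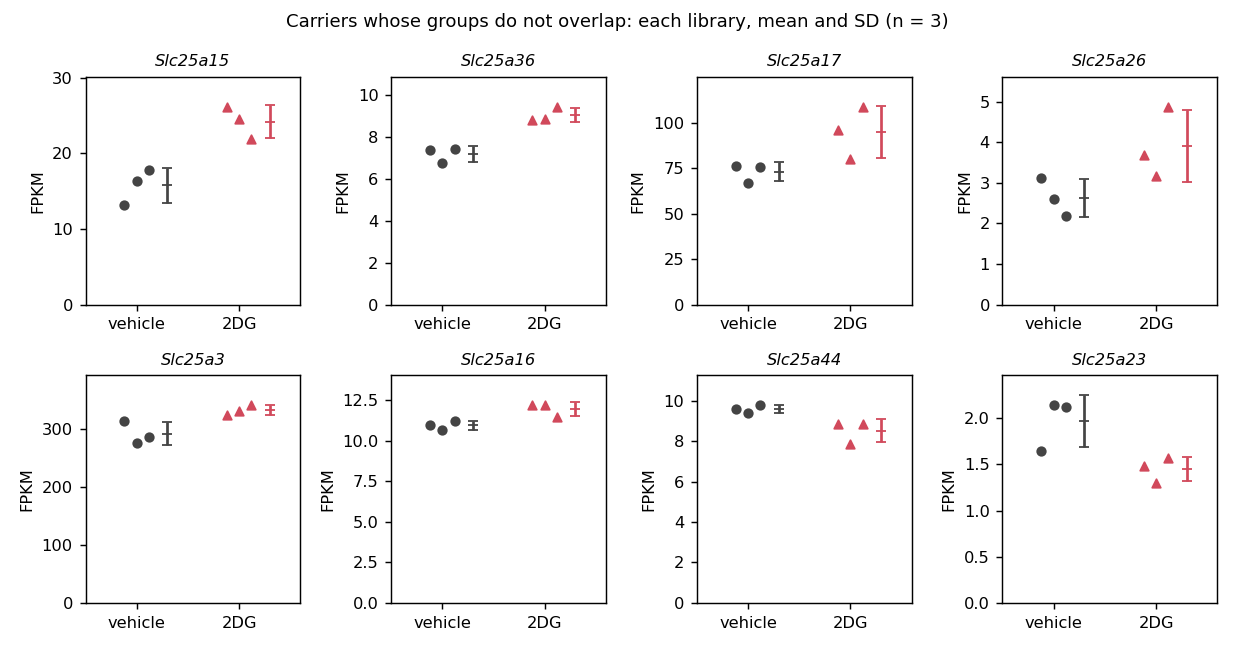
FPKM in each library for the 8 tested SLC25 genes whose vehicle (circles) and 2DG (triangles) libraries do not overlap, with mean and SD (n = 3) beside the points and axes from 0. In 6 of them the 2DG libraries are higher and in 2, Slc25a44 and Slc25a23, lower.

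None of the 9 tested carriers of amino acids or glutathione passed, and Slc25a15, described above, came nearest. Slc25a12 and Slc25a13 encode the aspartate/glutamate carriers of the malate-aspartate shuttle. Slc25a12 was at 40.1, 38.8 and 34.9 FPKM in the vehicle libraries and 31.8, 33.3 and 39.9 FPKM in the 2DG libraries. Slc25a13 was at 14.1, 11.2 and 15.1 FPKM in the vehicle libraries and 14.7, 14.1 and 15.8 FPKM in the 2DG libraries, so both genes overlapped between groups. The share of Slc25a12 in the sum of both was 73.8% ± 3.96 with vehicle and 70.1% ± 1.64 with 2DG (SD, n = 3 each; exact permutation p = 0.30). Slc25a22, for a glutamate carrier, was at 5.71, 7.32 and 8.11 FPKM in the vehicle libraries and 9.98, 9.97 and 7.40 FPKM in the 2DG libraries, where 2DG replicate 3 lay inside the vehicle range (log2 difference 0.33 ± 0.16, SE, adjusted p = 0.33). Its relative Slc25a18 was listed at 0 in 3 libraries and reached at most 0.218 FPKM. Slc25a44, a carrier gene for branched-chain amino acids, was at 9.61, 9.38 and 9.79 FPKM in the vehicle libraries and 8.87, 7.86 and 8.85 FPKM in the 2DG libraries, without overlap (adjusted p = 0.41). Slc25a29, for a carrier of basic amino acids, was at 1.00 to 1.82 FPKM.

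Slc25a38, which supplies glycine for haem synthesis, was at 14.2, 16.1 and 17.2 FPKM in the vehicle libraries and 16.6, 15.8 and 15.2 FPKM in the 2DG libraries, and its log2 difference of 0.01, which changed sign under quantile normalization, had a 95% interval from -0.21 to 0.22. The glutathione carrier gene Slc25a39 was at 53.1, 58.8 and 53.2 FPKM in the vehicle libraries and 48.6, 51.3 and 53.8 FPKM in the 2DG libraries, with an interval from -0.29 to 0.09. Its relative Slc25a40 was lower in every library, at 4.12 to 5.64 FPKM, and Slc25a39 held 91.7% ± 1.56 of their sum with vehicle and 91.9% ± 0.283 with 2DG.

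All 3 tested di- and tricarboxylate carriers had log2 differences below 0, from -0.21 to -0.11, and overlapping groups. Slc25a1, the citrate carrier gene, whose product exports the citrate from which cytosolic acetyl-CoA is made, was at 55.6, 61.3 and 56.5 FPKM in the vehicle libraries and 45.5, 58.7 and 51.7 FPKM in the 2DG libraries (adjusted p = 0.51). Slc25a11, the oxoglutarate/malate carrier gene of the malate-aspartate shuttle, was at 52.3, 58.7 and 48.9 FPKM in the vehicle libraries and 45.7, 51.4 and 50.3 FPKM in the 2DG libraries (adjusted p = 0.58). Slc25a10, for the dicarboxylate carrier, was at 8.14, 11.2 and 9.11 FPKM in the vehicle libraries and 7.72, 8.0 and 8.29 FPKM in the 2DG libraries (adjusted p = 0.43). Vehicle replicate 2 was the highest library for each of these genes. Without it the log2 difference was -0.09 for Slc25a10 and -0.04 for Slc25a11, and without 2DG replicate 1 that of Slc25a1 was -0.07 and that of Slc25a11 -0.06. Slc25a21, for the oxodicarboxylate carrier, was listed at 0 in every library.

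Both mitoferrins, which carry iron for haem and iron-sulphur clusters, were expressed. Slc25a37, mitoferrin-1, was at 4.86, 5.01 and 6.67 FPKM in the vehicle libraries and 6.72, 6.55 and 5.32 FPKM in the 2DG libraries. Slc25a28, mitoferrin-2, was at 7.17, 9.40 and 8.47 FPKM in the vehicle libraries and 8.66, 9.70 and 8.05 FPKM in the 2DG libraries. Mitoferrin-2 was the higher in every library, with 60.3% ± 4.68 of the sum with vehicle and 58.7% ± 2.1 with 2DG (SD, n = 3 each, exact permutation p = 0.90). Slc25a20, the carnitine/acylcarnitine carrier gene of fatty acid oxidation, was at 24.2, 23.3 and 21.7 FPKM in the vehicle libraries and 22.6, 21.4 and 23.9 FPKM in the 2DG libraries, and the interval of its log2 difference ran from -0.22 to 0.16. Of the uncoupling-protein-like carriers, Slc25a30 was at 25.3, 19.3 and 20.9 FPKM in the vehicle libraries and 18.3, 20.3 and 16.6 FPKM in the 2DG libraries (adjusted p = 0.39), and Slc25a14 was at 5.25 to 7.44 FPKM. Slc25a46, for an outer membrane protein of mitochondrial shape, was at 20.0 to 22.7 FPKM and Slc25a45 at 1.97 to 3.43 FPKM.

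**Figure D4:**
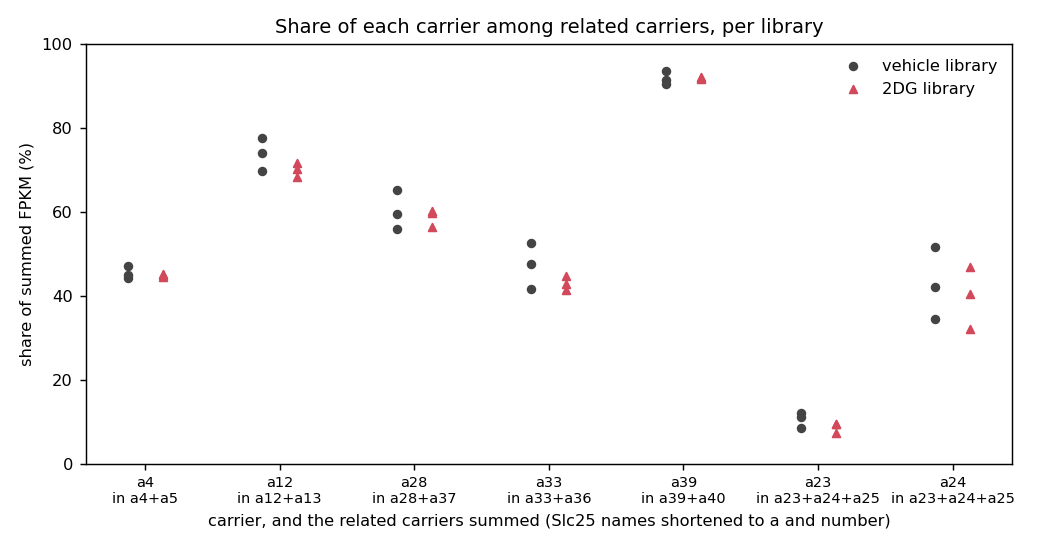
Share (%) of 1 carrier in the summed FPKM of closely related carriers, for each vehicle library (circles) and 2DG library (triangles); under each mark the carrier and the genes summed are named by the part after Slc25. Groups overlap for every share plotted, from 7.26% for Slc25a23 among the ATP-Mg/phosphate carriers to 93.5% for Slc25a39 of Slc25a39 and Slc25a40.

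Shares within related carriers were compared for 8 genes in all. The exact permutation test, two-sided over 3 against 3 libraries, cannot go below 0.1, and the values ran from 0.30 to 1.0 (0.80 to 1.0 after Benjamini-Hochberg adjustment over the 8). In the pyrimidine pair, Slc25a33 held 47.2% ± 5.45 with vehicle and 43.0% ± 1.69 with 2DG (SD, n = 3 each).

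The other 12 members had means under 1 FPKM. The nearest to that limit was Slc25a42, a coenzyme A carrier gene with a mean of 0.882 FPKM, at 0.839, 1.11 and 1.65 FPKM in the vehicle libraries and 0.756, 0.597 and 0.341 FPKM in the 2DG libraries. These groups did not overlap, and in a fit without the filter the log2 difference of Slc25a42 was -0.48 (adjusted p = 0.25 by limma). Slc25a43 went the other way, also without overlap, at 0 to 0.215 FPKM with vehicle and 0.291 to 0.618 FPKM with 2DG. Its log2 difference in that fit was 0.38 (adjusted p = 0.19 by limma). Slc25a27 was lower without overlap, at 0.177 to 0.183 FPKM with vehicle and 0.0995 to 0.174 FPKM with 2DG (log2 difference -0.06, adjusted p = 0.56 by limma). Slc25a47, typical of liver, had a mean of 0.753 FPKM. Slc25a43, Slc25a35, Slc25a27, Slc25a2, Slc25a18, Slc25a31, Slc25a41 and Slc25a34 had means between 0.0105 and 0.303 FPKM, and Slc25a48 and Slc25a21 were listed at 0 throughout. Slc25a31 is the ADP/ATP carrier of the germ line. Tested without a filter, 42 members gave 0 calls, while 165 of all 15371 loci were called. At an unadjusted p under 0.05 by limma there were 8 of the 42. The share of all loci at that level was not counted for this fit.

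The 44 genes were spread over 19 chromosomes of GRCm38, and 3 pairs lay within 50 kb of each other. In 2 of these pairs the neighbours were at very different levels. Slc25a5 is 18448 bases from Slc25a43 on chromosome X, with means of 421 and 0.303 FPKM, and Slc25a23 is 2056 bases from Slc25a41 on chromosome 17, with means of 1.71 and 0.0145 FPKM. Slc25a29 and Slc25a47, 162 bases apart on chromosome 12, were both low. Shared sequence limits some values: 46.6% of the 50-base stretches of the Slc25a5 transcript also occur in transcripts of 9 other genes in GENCODE M21, while Slc25a4 and Slc25a15 share none. For Slc25a33 the figure was 12.6%, for Slc25a36 11.8%, for Slc25a40 10.3% and for Slc25a10 9.07%. It was 8.07% for Slc25a37, 7.52% for Slc25a46 and 5.07% for Slc25a26. How the authors' counting divided such fragments is not given in the sources used here. Exons of 9 tested members, among them Slc25a10, Slc25a26, Slc25a33 and Slc25a37, overlap a gene on the other strand, and the use of strand is not stated either.

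Carriers of the family that go by other symbols gave a like picture, with 0 of 4 tested called, against 2.72% of all tested loci. Ucp2, the uncoupling protein gene of lymphocytes, was at 68.8, 77.1 and 68.5 FPKM in the vehicle libraries and 81.1, 88.3 and 73.3 FPKM in the 2DG libraries (log2 difference 0.17 ± 0.09, SE, adjusted p = 0.40). Mtch2, an outer membrane member involved in protein insertion, was at 44.1, 39.8 and 41.3 FPKM in the vehicle libraries and 35.4, 32.9 and 38.8 FPKM in the 2DG libraries, without overlap (log2 difference -0.22 ± 0.09, SE, adjusted p = 0.25). Ucp1 and Ucp3 were listed at 0 in every library.

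Genes around the carriers were counted from lists of import factors, other transporters, enzymes and channels. Over all tested loci 2.72% were called in either direction, so 0 calls in lists this short say little. In the import machinery that inserts carriers into the inner membrane, 0 of 15 were called (median log2 difference 0.00). Among other inner membrane transporters 0 of 15 were called (median -0.05). Mpc1, a subunit of the mitochondrial pyruvate carrier listed as Brp44l, was at 17.5, 19.0 and 21.3 FPKM in the vehicle libraries and 14.3, 13.3 and 15.7 FPKM in the 2DG libraries, without overlap (log2 difference -0.39 ± 0.10, SE, adjusted p = 0.10). Its partner Mpc2, listed as Brp44, was at 49.9, 40.7 and 45.8 FPKM in the vehicle libraries and 46.9, 47.7 and 54.2 FPKM in the 2DG libraries. The outer membrane channels Vdac1, Vdac2 and Vdac3 gave 0 calls.

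Of 25 tested enzymes that make or use carrier substrates, 1 fell and 0 rose, against 1.19% and 1.53% of all tested loci, and the median log2 difference was -0.11, against -0.01 over all tested loci. Got1, the cytosolic aspartate aminotransferase of the malate-aspartate shuttle, was at 95.7, 83.1 and 76.8 FPKM in the vehicle libraries and 48.7, 57.2 and 60.7 FPKM in the 2DG libraries. It fell, with a log2 difference of -0.61 ± 0.12 (SE) and an adjusted p of 0.045 by limma, and it lost its call without any 1 of the 6 libraries (adjusted p between 0.066 and 0.14). With replicates 2 and 3 only, the log2 difference was -0.43 and the adjusted p 0.22. Its mitochondrial counterpart Got2 was at 40.3 and 37.0 FPKM on average (adjusted p = 0.55). Gpd2, of the glycerol phosphate shuttle, was at 24.8, 18.8 and 18.9 FPKM in the vehicle libraries and 13.1, 11.9 and 14.7 FPKM in the 2DG libraries, without overlap, and missed the threshold (log2 difference -0.61 ± 0.13, SE, adjusted p = 0.062).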

How the data were processed

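RNA-seq values of 6 libraries (3 vehicle, 3 2DG) were used. The authors deposited 1 table with FPKM values for each locus in each library (per the file headers); the submitters' processing notes name the mm10 build, TopHat2 2.1.0, Cuffdiff 2.2.1.3, Cuffnorm 2.2.1.1 and Cufflinks 2.2.1.0, without settings. The scaling of the values, the strand setting and the annotation are not stated there. The 75th percentiles (10.9 to 11.6 FPKM) are nearly equal across libraries, while the sums differ, from 1469420 to 1958740 FPKM. Loci counted as small RNA, with Rn45s among them, held 70.6% (vehicle replicate 1) to 76.7% (2DG replicate 2) of each sum. Scaling to equal sums therefore follows mostly these loci. FPKM are no counts, so absolute depth is unknown. A rough relative depth was read from the most common ratio of low values between each library and vehicle replicate 1. It ran from 0.415 (vehicle replicate 2) to 1.11 (2DG replicate 1), with vehicle replicate 1 at 1. Only 13.5% (vehicle replicate 2) to 22.6% (2DG replicate 1) of the low loci lay close to that ratio, and whole reads were not recovered. An exact 0 can be a failed estimate.

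The 10228 loci averaging 1 FPKM or more were fitted on log2(FPKM + 1) with limma 3.58.1 in R 4.3.3, with group as the only term and a variance trend; two-sided p-values were corrected over all of them (Benjamini-Hochberg). With 3 against 3, a permutation test of 1 gene cannot go below 0.1. The code was tested on simulated data. Members and lists were chosen with earlier results of these data known. Named in full were members past the threshold, those with an unadjusted p under 0.05 and no overlap, and a fixed set. Oat, Gpd2, Got2, Slc25a42, Slc25a43, Slc25a27, Slc25a16, Slc25a23, Slc25a24, Slc25a30 and Slc25a44 were added after their values were seen. Older symbols were matched through RefSeq synonyms, and positions come from GENCODE M21 (GRCm38, the assembly mm10 denotes). The sample titles carry the numbers 17, 42 and 43 in both groups, for replicates 1 to 3, and do not say what these mark. Deviations from the group means of same-numbered libraries correlated at r = -0.05, 0.19 and -0.11. Only that of replicate 2 was over 0.1, so the numbers were not taken as pairs in the reported fit. Both replicate 1 libraries nevertheless had the lowest FPKM sums (1469420 and 1471760) and listed Rn45s. Such correlations, with so few libraries, cannot decide whether the numbers mark pairs, and a fit with a term for them was run as an alternative. Alternatives are named in the closing section. The values of 1 tested member are not reported here; it stays in the counts over all tested members. Figures were drawn with matplotlib 3.10.9.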

Additional observations from a re-analysis of the deposited data

How the results depend on the processing

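The count of carriers called lower was 0 in the reported fit and in all 17 alternatives, and that called higher was 0 in 13 of them. It was 1, Slc25a15, with quantile normalization, with small RNA loci left out, with loci of status OK only and with robust variance estimation. With the replicate block, a term for the shared numbers, it was 0, and the adjusted p of Slc25a15 was 0.13. The smallest carrier p was then that of Slc25a17 (unadjusted p = 0.0065 by limma, adjusted p = 0.12), against 0.0081 for Slc25a15. Slc25a17 also came first without 2DG replicate 2 (unadjusted p = 0.0034 by limma, against 0.0077 for Slc25a15). With the block, the unadjusted p by limma fell from 0.086 to 0.038 for Slc25a32 and rose from 0.038 to 0.067 for Slc25a26. Of the 32 tested carriers, 20 kept the sign of their difference in every alternative run, and 12 did not, among them Slc25a24, at -0.24 as reported and 0.08 with replicates 2 and 3 only. The number of all loci called ran from 71 (replicates 2 and 3 only, an alternative chosen after seeing the data) to 473 (small RNA loci left out), against 278; it was 165 with no filter, 157 with equal sums, 101 with the replicate block, 446 with robust variance estimation, and 79 to 167 with 1 library left out. Alternatives within 1.5 times of 278 were a pseudocount of 0.1, a minimum mean of 5 FPKM, quantile normalization, status OK only and no variance trend. Got1 also lost its call with no filter (adjusted p = 0.083), equal sums (0.23), the replicate block (0.12), no variance trend (0.062), replicates 2 and 3 only (0.22) and each library left out in turn. The difference in the share of Slc25a24 among Slc25a23, Slc25a24 and Slc25a25 was -2.90 percentage points and ran from -10.5 to 5.39 with 1 replicate number left out; other shares moved by less than 1 SD. The depth of each library is unknown, so what the low members could have shown is not known either.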
